A study of Mus musculus with 8 samples.

Results

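The BCL2 family decides whether a cell under stress opens its outer mitochondrial membrane, and 10 of its genes were followed in RNA-seq of sorted 4T1 cells. They were the anti-apoptotic genes Bcl2, Bcl2l1, Bcl2l2 and Mcl1, the effectors Bax and Bak1, and the BH3-only genes Bid, Bbc3, Pmaip1 and Bcl2l11. The members were chosen by name from knowledge of the family, and each symbol was matched to its Ensembl ID in the count table. All 10 were found among the 16341 genes counted, and 9 of them were among the 11717 genes with enough counts to be tested. Pmaip1 was the exception, with 1 read in 1 library.

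The cells were 4T1, a mouse mammary carcinoma line, and 4 libraries were made from 4T1-Sca1+ cells and 4 from 4T1-Sca1- cells. The marker SCA1, the product of Ly6a, lies on the cell surface, and cells stained with a labelled antibody to it were separated on magnetic columns. The labels name no genotype change, treatment, time or animal age for either group, and both share the parental line. The source label gives the parental line as the origin, while the protocol speaks of tumor and of a CD45-negative gate, so the group names carry the marker and nothing more. The labels do not say whether the numbered replicates were separate sorts or cultures, so the p-values measure the spread between these libraries, which may be technical.

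Library totals lay between 15041995 and 16968215 counts in Sca1+ and between 13561804 and 16142836 in Sca1-. Ly6a had a normalized count of 167 ± 20.2 (SD, n = 4) in Sca1+ against 1.79 ± 1.73 in Sca1-, a log2 fold change of 6.42 ± 0.27 (SE) (adjusted p of 2.13e-12 by edgeR), although Ly6a has close paralogs that may share its reads. Sca1+ replicate 3 stood apart from the other Sca1+ libraries. A chi-square of counts over genes, per degree of freedom, was 7.07 to 10.2 in its 3 replicate pairs against 1.90 to 5.60 in the other 9 pairs, so each member's value without this library was computed too. Of the 11717 genes tested, 61.5% passed an adjusted p of 0.05, of which 31.3% of tested genes were higher in Sca1+ and 30.2% were lower, so a call by itself was common in these data.

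As background, BCL2, BCL-XL (from Bcl2l1), BCL-W (from Bcl2l2) and MCL1 hold the effector proteins BAX and BAK in check at the mitochondrion. BH3-only proteins relieve that hold or activate the effectors directly, and BAX and BAK then form pores that release cytochrome c and start the caspases. BIM (from Bcl2l11) is well known in the mammary gland for the clearing of cells that have lost contact with matrix, and PUMA (from Bbc3) and NOXA (from Pmaip1) are classical p53 targets. Much of the family's control acts on protein, through stability, cleavage, binding and location, none of which is measured by RNA-seq.

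Promoter windows of 250 bases before an annotated transcript start were taken from RefSeq (GRCm38.p6) for the 9 members other than Pmaip1, which gave 14 windows, some of them overlapping. The windows were searched on both strands for 6 motifs. Those other than SP1 fit factors in the lists described further on. No SP1 gene is in those lists, and many of their factors, Rela, E2f1 and Hif1a among them, had no motif searched. Below is the Bcl2l11 window that held motifs, because Bcl2l11 was the member with the largest difference. With it are the Bbc3 window that shares its FOXO motif and the Bcl2 window for the namesake gene. Each is printed 5′ to 3′ on the gene's strand, and capitals mark a motif.
Bcl2l11, chr2:128125788-128126037, plus strand: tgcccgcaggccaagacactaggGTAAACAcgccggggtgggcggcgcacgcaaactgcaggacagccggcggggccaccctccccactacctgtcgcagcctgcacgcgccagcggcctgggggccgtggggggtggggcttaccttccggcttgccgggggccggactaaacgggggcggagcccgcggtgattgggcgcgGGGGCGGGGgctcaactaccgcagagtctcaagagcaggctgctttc
Bbc3, chr7:16310011-16310260, plus strand: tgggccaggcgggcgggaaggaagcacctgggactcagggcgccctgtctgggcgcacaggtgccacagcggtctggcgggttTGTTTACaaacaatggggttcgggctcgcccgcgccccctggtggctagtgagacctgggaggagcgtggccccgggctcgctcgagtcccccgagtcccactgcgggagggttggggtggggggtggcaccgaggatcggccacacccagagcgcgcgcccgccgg
Bcl2, chr1:106714291-106714540, minus strand: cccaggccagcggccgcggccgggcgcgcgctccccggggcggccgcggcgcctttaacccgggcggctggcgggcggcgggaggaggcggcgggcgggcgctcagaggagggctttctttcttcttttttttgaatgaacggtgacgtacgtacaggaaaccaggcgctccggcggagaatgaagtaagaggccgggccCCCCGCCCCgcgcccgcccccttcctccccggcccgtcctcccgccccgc
The first capitals in Bcl2l11 are the FOXO motif GTAAACA, which began 227 bases before the start, and the second are an SP1 motif, GGGGCGGGG, which began 47 bases before it. In Bbc3 the FOXO motif began 167 bases before the start, and in Bcl2 the SP1 motif began 50 bases before it. FOXO motifs were found in 2 of the 14 member windows and in 3.17% of all 32851 RefSeq windows of this length. SP1 motifs were found in 6 member windows, those of Bax, Bcl2, Bcl2l2 and Bid, 1 of Bcl2l11 and 1 of Bbc3, against 10.4% of all windows. The other Bcl2l11 window, chr2:128127325-128127574, had 0 motifs. The MYC E-box CACGTG was found in 2 member windows, of Bax and Bbc3, against 6.02% of all windows. The STAT motif TTCNNNGAA, the CREB motif TGACGTCA and the AP-1 motif TGANTCA were in 0 of the 14 windows, against 7.02%, 1.55% and 6.75% of all windows. None of the motifs found in these windows overlapped another. A match describes letters in the window and not a bound factor. Among the windows not shown, those of Bak1, Bcl2l2 and Bid lie partly within annotated exons. The Bbc3 window shown lies inside the annotated Bbc3 gene, downstream of its first annotated base.

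Members of the family differed between Sca1+ and Sca1- cells in both directions. Of the 9 members tested, 4 were higher in Sca1+ (Bcl2, Bcl2l2, Mcl1 and Bcl2l11), 2 were lower (Bak1 and Bid) and 3 did not pass the test (Bcl2l1, Bax and Bbc3). The same 6 members had no overlap between the groups in normalized counts, as did 54.7% of all tested genes, 26.8% wholly higher in Sca1+ and 27.9% wholly lower. The share of members called was therefore close to the share of all tested genes. The median log2 fold change was 0.22 over the 9 members and 0.0074 over all tested genes, medians in which opposite directions cancel. In size, without the sign, the median over all tested genes was 0.24. A log2 fold change of 1 in size was reached by 0 members.

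**Figure D1:**
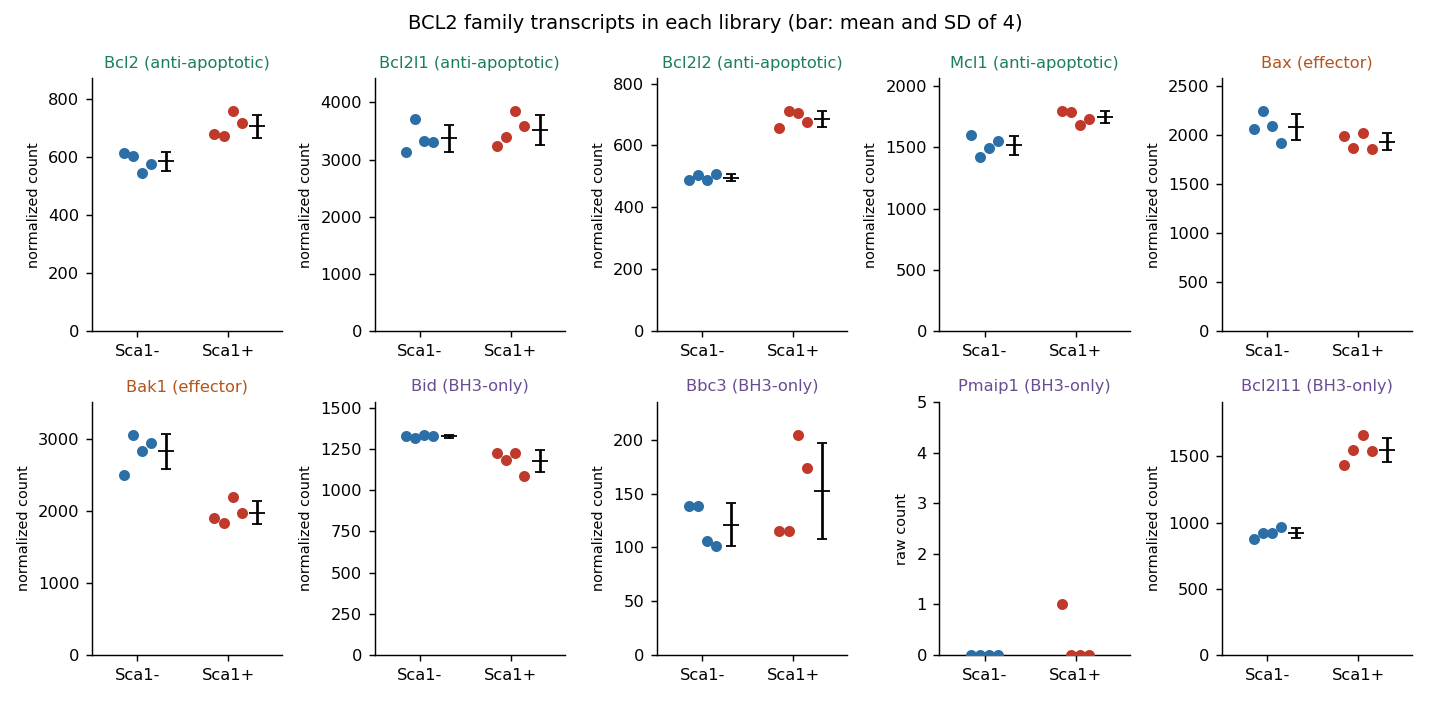
Normalized counts (counts divided by a size factor per library, separate axis for each gene) of the 9 tested BCL2 family members in the 4 Sca1+ and 4 Sca1- libraries, with points for libraries and the group mean ± SD. Bcl2l11, Bcl2l2 and Bak1 show the clearest gaps between the groups, whereas the groups overlap for Bcl2l1, Bax and Bbc3. A further panel gives Pmaip1 as raw counts.

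Among the 4 anti-apoptotic genes, 3 rose in Sca1+ and 0 fell, where 31.3% of all tested genes were called higher and 30.2% lower. Bcl2l2 (ENSMUSG00000089682, GRCm38 chr14:54883377-54888234, plus strand), which encodes BCL-W, had the largest of these differences. Its normalized counts were 655, 710.0, 704 and 677 in Sca1+ replicates 1 to 4, and 487, 503, 488 and 508 in Sca1- replicates 1 to 4. Every Sca1+ library lay above every Sca1- library, and the libraries within each group were tightly grouped. The means were 687 ± 25.4 and 496 ± 10.7 (SD, n = 4 each), a log2 fold change of 0.48 ± 0.05 (SE) or 1.40-fold (adjusted p of 7.58e-07 by edgeR). Its exons share 594 bases, 13.3% of their length, with Gm20521 on the same strand, which was not among the genes counted.

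Bcl2 (ENSMUSG00000057329, chr1:106538178-106714274, minus strand), the founding member of the family, was also higher in Sca1+. The Sca1+ libraries had normalized counts of 677, 672, 756 and 716, and the Sca1- libraries had 614, 602, 543 and 576. The lowest Sca1+ library was above the highest Sca1- library. The means of 705 ± 39.2 and 584 ± 31.3 gave a log2 fold change of 0.28 ± 0.06, 1.22-fold (adjusted p of 0.000497 by edgeR).

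Mcl1 (ENSMUSG00000038612, chr3:95658788-95663176, plus strand) encodes a short-lived protein that binds BAK and BIM. Its normalized counts were 1791, 1786, 1684 and 1730.2 in Sca1+ and 1599.6, 1416, 1495 and 1552 in Sca1-. The groups did not overlap, although the gap between the lowest Sca1+ and the highest Sca1- library was narrow. The log2 fold change was 0.22 ± 0.05, from means of 1748 ± 50.9 and 1516 ± 79.1, and the adjusted p was 0.000935 by edgeR.

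Bcl2l1 (ENSMUSG00000007659, chr2:152780668-152831728, minus strand), the source of BCL-XL, was the most highly counted anti-apoptotic gene and did not pass the test. It had normalized counts of 3233, 3387, 3841 and 3587 in Sca1+ and 3137, 3709.5, 3319 and 3312 in Sca1-. The groups overlapped, with the second Sca1- library above 3 of the Sca1+ libraries. The log2 fold change was 0.072 ± 0.06 (adjusted p of 0.29 by edgeR), and it was -0.053 with offsets corrected for transcript GC content. Leaving out 1 library at a time gave 0.025 to 0.12, with the lowest value without Sca1+ replicate 3 and 0.028 without Sca1- replicate 1, and the gene was not called in any of these fits. Bcl2l1 can be spliced to a long protective and a short pro-apoptotic form, which gene-level counts do not separate.

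The effectors went the other way or did not pass. Bak1 (ENSMUSG00000057789, chr17:27019810-27029009, minus strand), whose protein sits in the outer mitochondrial membrane of unstressed cells, fell in Sca1+. Normalized counts were 1907, 1839, 2199 and 1967 in Sca1+ and 2494, 3054, 2827 and 2951 in Sca1-. All 4 Sca1+ libraries lay below the lowest Sca1- library. The means of 1978 ± 157 and 2832 ± 243 gave a log2 fold change of -0.50 ± 0.06, a ratio of 0.705 (adjusted p of 2.31e-06 by edgeR). Bak1 shares 437 exon bases, 18.2% of its exon length, with Ggnbp1 on the opposite strand, and the sources do not say whether strand was used in counting, so reads from the shared bases cannot be told apart. Ggnbp1 itself had only 43.3 ± 4.54 and 39.9 ± 4.36 normalized counts, at a log2 fold change of 0.13 (adjusted p of 0.487 by edgeR).

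Bax (ENSMUSG00000003873, chr7:45461697-45466898, minus strand), whose protein moves from cytosol to mitochondrion on activation, did not pass the test. The Sca1+ libraries held 1993, 1867, 2026 and 1861 normalized counts and the Sca1- libraries 2062, 2244, 2099 and 1919. The groups overlapped, since the lowest Sca1- library was below 2 of the Sca1+ libraries. Bax had a log2 fold change of -0.091 ± 0.05 (adjusted p of 0.136 by edgeR). It was called without Sca1+ replicate 3, at -0.12 (adjusted p of 0.0438), and with offsets corrected for GC content, at -0.44 (adjusted p of 3.51e-08). Bax has a GC-rich transcript, at 63.55%. The part of GC content in its difference was not tested, since that correction only changes the processing.

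The BH3-only genes split in direction. Bcl2l11 (ENSMUSG00000027381, chr2:128126038-128162547, plus strand), which encodes BIM, a BH3-only protein able to bind every anti-apoptotic member named here, had the largest difference of the 10 members. Its normalized counts were 1439, 1549, 1662 and 1539 in Sca1+ and 876, 921, 922 and 967 in Sca1-. The groups were far apart, with every Sca1+ library well above every Sca1- library. The means were 1547 ± 91.2 and 921 ± 37.2, a log2 fold change of 0.76 ± 0.05 or 1.69-fold (adjusted p of 1.45e-09 by edgeR). Of all tested genes, 10.3% had a larger log2 fold change in size.

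Bid (ENSMUSG00000004446, chr6:120891930-120916853, minus strand) encodes a protein that caspase-8 cleaves, which links death receptors to the mitochondrion. Its normalized counts were 1225, 1186, 1229 and 1084 in Sca1+ and 1328, 1318, 1336 and 1332 in Sca1-. The Sca1- libraries were nearly equal and all above the Sca1+ libraries. Bid had a log2 fold change of -0.16 ± 0.05, from means of 1181 ± 67.3 and 1328 ± 7.54 (adjusted p of 0.0107 by edgeR). The call was lost when libraries were scaled by their totals alone, at -0.11 (adjusted p of 0.0538). Bid shares 628 exon bases, 17.7% of its exon length, with Bcl2l13 on the opposite strand, a counted gene that was also lower in Sca1+ (log2 fold change -0.36), and reads from the shared bases cannot be told apart.

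Bbc3 (ENSMUSG00000002083, chr7:16308393-16318205, plus strand), the PUMA gene, was counted low and varied most among the tested members. The Sca1+ libraries had 115, 115, 204 and 174 normalized counts and the Sca1- libraries had 138, 139, 106 and 102. Sca1+ replicates 3 and 4 were above all Sca1- libraries, while replicates 1 and 2 lay among them. The coefficient of variation was 29.2% in Sca1+ and 16.7% in Sca1-, against at most 8.58% in either group for the other 8 tested members. Its log2 fold change of 0.33 ± 0.17 did not pass the test (adjusted p of 0.0941 by edgeR). It was 0.45 without Sca1+ replicate 1 (adjusted p of 0.0280), 0.44 without Sca1+ replicate 2 (adjusted p of 0.0273), 0.16 without Sca1+ replicate 3 (adjusted p of 0.312) and -0.084 with GC-corrected offsets, and the Bbc3 transcript is 65.21% GC.

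Pmaip1 (ENSMUSG00000024521, chromosome 18), the NOXA gene, had 1 count in Sca1+ replicate 1 and 0 in the other 7 libraries. A library with 0 counts allows up to 3 counts, so Pmaip1 was at or under the detection limit in both groups. The limit covers counting error only. The filter on low counts left Pmaip1 out of the test. Without that filter its log2 fold change was 1.53 ± 1.59 (SE), too wide to be read.

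**Figure D2:**
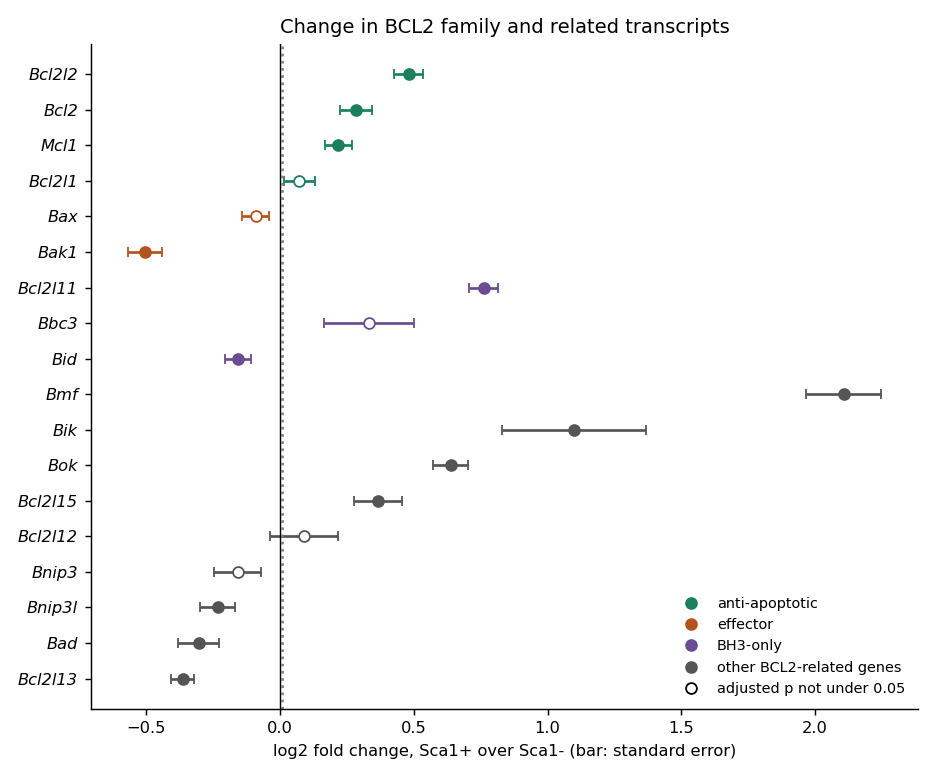
Log2 fold change (Sca1+ over Sca1-, bars are ± SE from the edgeR fit) of the 9 tested members and the 9 other tested BCL2-related genes, with the called genes marked. Among members the values run from -0.50 for Bak1 to 0.76 for Bcl2l11, and among the related genes Bmf lies farthest to the right at 2.11.

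Levels were compared between members only after division by exon length. Per kilobase of exon, the order was the same in both groups: Bax, Bak1, Bcl2l1, Mcl1, Bid, Bcl2l11, Bcl2l2, Bcl2 and Bbc3. The top was Bax with 1229 ± 54.1 normalized counts per kilobase in Sca1+ and 1320.5 ± 84.9 in Sca1- (SD, n = 4). Next came Bak1 with 822 ± 65.0 and 1176 ± 101, and Bcl2l1 with 766 ± 57.3 and 735 ± 52.7, so Bak1 and Bcl2l1 ranges overlapped in Sca1+ whereas Bax and Bak1 ranges overlapped in Sca1-. Mcl1 had 511 ± 14.9 and 443 ± 23.2 per kilobase and Bid had 333 ± 18.9 and 374 ± 2.13. The low end held Bcl2l11 with 193 ± 11.4 and 115 ± 4.63, Bcl2l2 with 154 ± 5.70 and 111 ± 2.40, Bcl2 with 77.0 ± 4.28 and 63.8 ± 3.42, and Bbc3 with 71.7 ± 21.0 and 57.0 ± 9.51. Bcl2l11 and Bcl2l2 overlapped in Sca1- only, and Bcl2 and Bbc3 overlapped in both groups. These levels use all annotated exons of a gene, so they understate genes that use few of them, and the order depends on the length used. With the longest transcript as length, Bcl2l1 stood above Bak1 in both groups, with 24.3% against 14.7% of the family's sum in Sca1+ and 22.4% against 20.3% in Sca1-. Mcl1 then stood above Bid in Sca1+, at 9.11% against 8.70%, and below it in Sca1-, at 7.61% against 9.42%.

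The shares of the roles in the family's summed level per kilobase are a description without a test, since they sum to a fixed total. The anti-apoptotic genes made up 36.3% ± 0.914 of the sum in Sca1+ and 30.8% ± 0.623 in Sca1- (SD, n = 4). By library these were 35.5, 37.1, 35.5 and 37.1% in Sca1+ and 31.5, 30.2, 30.4 and 31.2% in Sca1-, with no overlap. The effectors made up 49.3% ± 0.882 against 56.8% ± 1.06, and again the ranges did not overlap. The BH3-only genes made up 14.4% ± 0.262 against 12.4% ± 0.462, with 14.2, 14.5, 14.7 and 14.1% in Sca1+ and 13.0, 11.9, 12.4 and 12.5% in Sca1-. Bak1 alone went from 26.7% of the sum in Sca1- to 19.8% in Sca1+, while Bax was at 30.0% and 29.6%. The share of Bcl2l11 was 4.64% in Sca1+ and 2.61% in Sca1-, and that of Bcl2l1 was 18.4% and 16.7%.

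**Figure D3:**
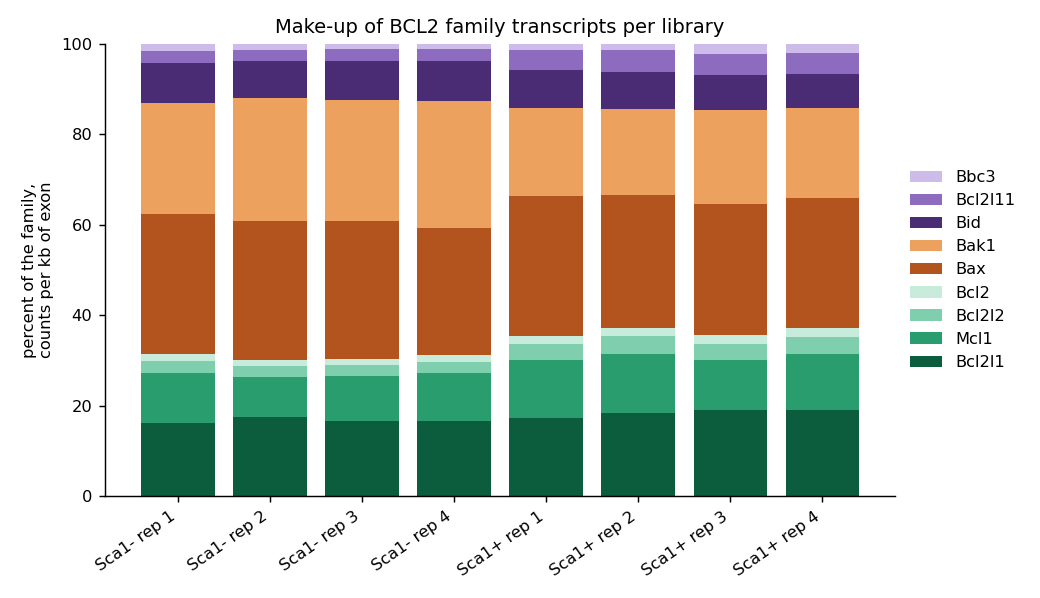
Share of the family's summed normalized counts per kilobase of exon (percent) held by each tested member in each of the 8 libraries. Members are stacked and shaded by role (anti-apoptotic, effector and BH3-only). The effector share lies between 48.4 and 50.3% in Sca1+ and between 55.5 and 58.0% in Sca1-.

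The other BCL2-related genes also moved in both directions, as did all tested genes (31.3% called higher and 30.2% lower). Of 16 listed, 13 were counted and 9 tested, of which 4 rose in Sca1+, 3 fell and 2 did not pass, with a median log2 fold change of 0.090. Bmf, a BH3-only gene tied to loss of matrix contact like Bcl2l11, had the largest difference. It had 145, 154, 187 and 144 normalized counts in Sca1+ and 33.4, 35.9, 32.3 and 45.7 in Sca1-, so the groups were far apart. Its log2 fold change was 2.11 ± 0.14 (adjusted p of 7.3e-10 by edgeR).

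Bok, an effector-like relative of BAX and BAK, went opposite to Bak1. Its Sca1+ libraries held 1475, 1543, 1891 and 1582 normalized counts and its Sca1- libraries 1018, 1076, 1001 and 1114, without overlap. The log2 fold change was 0.64 ± 0.07 (adjusted p of 2.68e-07 by edgeR), and 0.37 with GC-corrected offsets, where it was still called. Bok was not in the shares of the roles given above.

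The BH3-only gene Bik was low and rose from 9.88 ± 3.37 to 21.3 ± 3.45 normalized counts (log2 fold change 1.10 ± 0.27, adjusted p of 0.00187). Bcl2l15 had 326 ± 33.1 against 255 ± 25.5 (log2 fold change 0.37 ± 0.09, adjusted p of 0.00176). Bad, a BH3-only gene whose protein is held inactive by survival kinases, fell from 773 ± 88.8 in Sca1- to 621 ± 52.0 in Sca1+ (log2 fold change -0.30 ± 0.08, adjusted p of 0.00232 by edgeR), although its groups overlapped. The mitophagy receptor genes Bcl2l13 and Bnip3l fell too, from 1586 ± 2.59 to 1221 ± 33.7 (log2 fold change -0.36 ± 0.04, adjusted p of 1.56e-06 by edgeR) and from 838 ± 83.5 to 707 ± 10.1 (log2 fold change -0.23 ± 0.06, adjusted p of 0.00421). Bnip3, at 262 ± 23.2 against 296 ± 30.9, and Bcl2l12, at 197 ± 42.5 against 186 ± 21.8, did not pass, with adjusted p of 0.128 and 0.556 by edgeR. Bnip3 had a log2 fold change of -0.16 ± 0.09, which was called without Sca1- replicate 2, at -0.23 (adjusted p of 0.0329), and was -0.06 with GC-corrected offsets. Hrk, Bcl2l14, Bnipl and Bcl2a1a had 10, 22, 17 and 0 counts over the 4 Sca1+ libraries and 3, 2, 3 and 1 over the 4 Sca1- libraries and were too low to test. Bcl2l10, Bcl2a1b and Bcl2a1d were not among the genes counted.

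Genes around the family were read from 8 lists of the same pathway, of which the genes with the largest differences in each direction are named. Downstream of the mitochondrion, the caspases and apoptosome genes had 3 higher, 2 lower and 9 not called of 14 tested, with a median log2 fold change of -0.046. Casp6, an executioner caspase, and Casp9, the caspase of the apoptosome, rose by 0.53 ± 0.08 and 0.43 ± 0.09 on the log2 scale (adjusted p of 2.09e-05 and 0.000466 by edgeR). Htra2, a mitochondrial protease that blocks inhibitors of apoptosis once released, fell from 2380.3 ± 97.6 to 1885 ± 134 (log2 fold change -0.32 ± 0.05, adjusted p of 4.03e-05).

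The inhibitor of apoptosis genes had 1 higher, 3 lower and 1 not called of 5 tested, with a median of -0.18. Xiap, which binds caspases directly, had 1113 ± 70.6 normalized counts in Sca1+ and 755 ± 81.3 in Sca1-, a log2 fold change of 0.57 ± 0.07 (adjusted p of 1.58e-06 by edgeR). Birc3, an NF-κB target, had 231 against 386 (log2 fold change -0.73 ± 0.08, adjusted p of 3.59e-07), and Birc2 had -0.20 ± 0.07 (adjusted p of 0.0254), a call kept in 13 of 18 alternatives. Birc5, the survivin gene of dividing cells, had a log2 fold change of -0.18 ± 0.04 (adjusted p of 0.00112 by edgeR). The death receptor arm had 2 higher, 2 lower and 5 not called of 9 tested, with a median of -0.039. Tnfrsf1a, the main TNF receptor, rose by 0.58 ± 0.05 and its adaptor Tradd by 0.48 ± 0.08 on the log2 scale, with adjusted p of 8.16e-09 and 7.71e-05 by edgeR. Tnfrsf10b, the TRAIL receptor, had a log2 fold change of -0.17 ± 0.05 (adjusted p of 0.0106 by edgeR), and its call was lost with library totals alone, at -0.13 (adjusted p of 0.0515).

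Upstream, the list of p53 and its targets had 4 higher, 11 lower and 3 not called of 18 tested, with a median of -0.29. Of all tested genes, 31.3% were called higher and 30.2% lower. Of the 2 classical target members above, Bbc3 did not pass and Pmaip1 was not tested. Cdkn1a, the cell cycle inhibitor p21, had 693 against 338 normalized counts, a log2 fold change of 1.05 ± 0.06 (adjusted p of 1.22e-10 by edgeR), and Phlda3 had 0.46 ± 0.08 (adjusted p of 5.11e-05). The call of Phlda3 was lost with GC-corrected offsets, at 0.14 (adjusted p of 0.0598 by edgeR). Plk2 and Polk were lower, by log2 fold changes of -1.60 ± 0.06 and -0.68 ± 0.07 (adjusted p of 4.12e-13 and 5.41e-07 by edgeR). Factors known at BH3-only genes had 1 higher, 5 lower and 4 not called of 10 tested, with a median of -0.095. Atf3, a stress-induced factor, was at 286 ± 9.82 against 1549 ± 128 normalized counts, a log2 fold change of -2.42 ± 0.07 (adjusted p of 1.23e-14 by edgeR). Ddit3 had -0.60 ± 0.10 (adjusted p of 5.02e-05) and E2f1 had 0.29 ± 0.05 (adjusted p of 0.000166). Over the 18 alternatives the E2f1 value ran from 0.098 to 0.33, and its call was kept in all of them. Atf4, the main factor of the integrated stress response, had -0.12 ± 0.04 on the log2 scale (adjusted p of 0.0169 by edgeR), a call kept in 14 of 18 alternatives. The FOXO genes of this list were named after their values were seen, because the FOXO motif stands in the Bcl2l11 window shown. Foxo1 had a log2 fold change of -0.39 ± 0.07 (adjusted p of 9.23e-05 by edgeR). Foxo3 had 0.11 ± 0.09 and Foxo4 had 0.14 ± 0.09 (adjusted p of 0.286 and 0.189 by edgeR).

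Factors known at anti-apoptotic genes had 4 higher, 6 lower and 1 not called of 11 tested, with a median of -0.25. The NF-κB subunit genes Rel and Rela were lower by log2 fold changes of -0.85 ± 0.12 and -0.56 ± 0.05 (adjusted p of 7.66e-06 and 1.88e-08 by edgeR). Hif1a rose by 0.39 ± 0.06 and Stat5a by 0.34 ± 0.07 on the log2 scale (adjusted p of 1.17e-05 and 0.000267 by edgeR). Genes that act on MCL1 protein turnover had 2 higher, 3 lower and 4 not called of 9 tested, with a median of 0.0065. Tpt1 and Bag3 rose by 0.39 ± 0.08 and 0.18 ± 0.05 on the log2 scale (adjusted p of 0.000398 and 0.00388 by edgeR), and the call of Bag3 was lost with GC-corrected offsets, at 0.046 (adjusted p of 0.293). Ier3 and Btrc had log2 fold changes of -0.46 ± 0.05 and -0.24 ± 0.08 (adjusted p of 1.56e-07 and 0.0128 by edgeR), and the call of Btrc was kept in 16 of 18 alternatives, with -0.14 for GC-corrected offsets.

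The list of mitochondrial partners, the channels and membrane-shaping proteins that BCL2 proteins bind or act beside, had 0 higher, 9 lower and 3 not called of 12 tested. Its median log2 fold change was -0.23, against 0.0074 over all tested genes, of which 30.2% were called lower. Vdac3, an outer membrane channel gene, had 687 against 975 normalized counts, a log2 fold change of -0.49 ± 0.06 (adjusted p of 1.06e-06 by edgeR), and Ppif, the cyclophilin of the permeability transition pore, had -0.36 ± 0.06 (adjusted p of 5.03e-05). The adenine nucleotide carrier genes Slc25a5 and Slc25a4 had the smallest called differences, with log2 fold changes of -0.14 ± 0.04 and -0.11 ± 0.04 (adjusted p of 0.00756 and 0.0254 by edgeR), and the call of Slc25a4 was kept in 12 of 18 alternatives. Vdac2, whose protein holds BAK at the membrane, was at 3028 ± 189 against 3911 ± 34.0, a log2 fold change of -0.36 ± 0.05 (adjusted p of 5.38e-06), and was named after its values were seen.

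**Figure D4:**
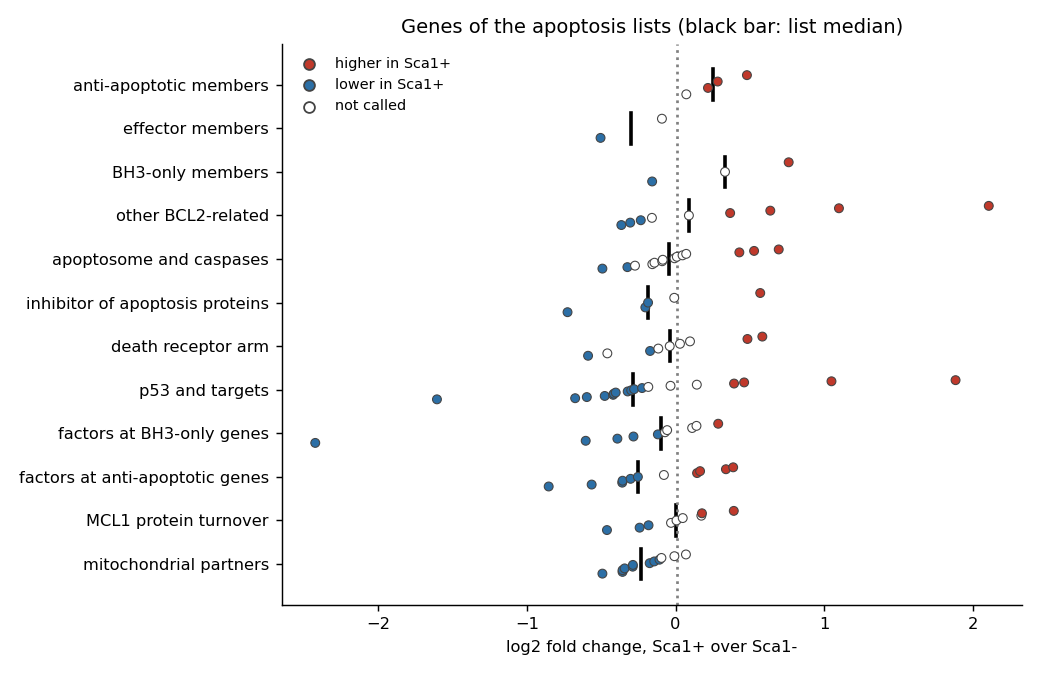
Log2 fold change (Sca1+ over Sca1-) of each tested gene in each list of the apoptosis pathway, the member roles included. Points are colored by call (edgeR adjusted p of 0.05), and a black bar marks the list median. The mitochondrial partners have 0 genes higher and 9 lower, and the p53 list has 4 higher and 11 lower. Of all tested genes, 31.3% were called higher and 30.2% lower.

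The genes whose pattern was most like that of Bcl2l11 over the 8 libraries, by Pearson's r of log2 CPM, were Loxl3 (r of 0.999, log2 fold change 0.99), Rhobtb2 (r of 0.998, log2 fold change 0.56) and Notch3 (r of 0.998, log2 fold change 4.07). The 8 points share the 2 groups, and 1201 tested genes reached an r of 0.95, so this likeness was common.

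Markers of other cells were checked beside these results, since bulk RNA cannot tell fewer cells of a type from less RNA per cell. Of 12 epithelial markers, all were counted and only Krt5 was at 3 counts or less in every library, 2 of 11 tested were higher in Sca1+ and 7 lower, and their summed normalized counts were 60709 to 66617 in Sca1+ and 64104 to 69105 in Sca1-. Of 18 leukocyte markers, 6 were not among the genes counted, Adgre1 and Ly6g among them, a further 3 (Cd3e, S100a9 and Csf3r) were at 3 counts or less in every library, and the sums were 214 to 233 in Sca1+ and 90.7 to 129 in Sca1-. The 3 leukocyte markers tested, Cd74, Csf1r and S100a8, were all higher in Sca1+. Of 10 fibroblast markers, Col3a1 and Lum were not among the genes counted, 3 of 4 tested were higher in Sca1+, and the sums were 3101 to 3320.3 against 2281.5 to 2636.6. Most of these sums came from Sparc, with a mean of 2543 in Sca1+ and 2012 in Sca1-, and Pdgfra, with 560 and 364. The next was Col1a1, with 47.6 and 28.6, while Postn had 24.7 and 24.2 and was not called. Dcn, Pdgfrb, Col1a2 and Fap were too low to test. They had 49, 27, 19 and 4 counts over the Sca1+ libraries and 4, 1, 18 and 11 over the Sca1- libraries. Of 8 endothelial markers, Kdr was not among the genes counted and 4 were at 3 counts or less in every library. Only Tie1 was tested, and it was lower in Sca1+. Pecam1 and Esam, too low to test, had 21 and 24 counts over the Sca1+ libraries and 4 and 32 over the Sca1- libraries. The endothelial sums were 34.7 to 43.9 against 42.3 to 66.2. The part of such markers in the differences of the BCL2 family was not tested.

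**Figure D5:**
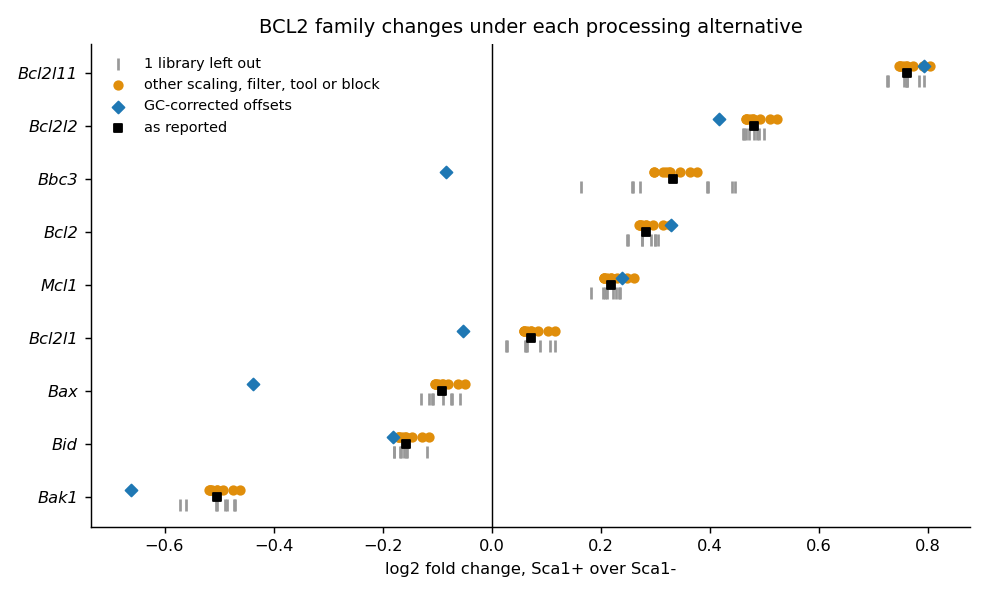
Log2 fold change (Sca1+ over Sca1-) of each tested member as reported and under 18 other ways of scaling, filtering, testing or leaving out a library. Bcl2l11 stays between 0.72 and 0.80 and Bak1 between -0.66 and -0.46, while Bcl2l1 and Bbc3 change sign with GC-corrected offsets and Bax moves to -0.44.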

How the data were processed

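RNA-seq libraries of 4T1-Sca1+ and 4T1-Sca1- cells (4 each) were compared. Per the labels, libraries of total RNA were prepared with a TruSeq RNA kit for a NextSeq instrument, and the processing notes of the submitters name cutadapt 1.16, STAR 2.5.3a and GRCm38. The counting tool, the annotation and the use of strand are not given in the sources used here. The authors deposited raw counts per Ensembl gene (16341 genes) and a table of normalized signal (15372 genes), whose values equalled the counts divided by the DESeq2 size factor of each library.

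Symbols, positions and GC content came from GENCODE M21 (GRCm38) by Ensembl ID, with 139 of the genes counted not found there. Counts were tested with edgeR 4.0.16 in R 4.3.3 (TMM scaling, filterByExpr, two-sided quasi-likelihood test with no covariate, Benjamini-Hochberg adjustment over 11717 tested genes, called under an adjusted p of 0.05). The SE is the log2 fold change divided by the square root of F. Normalized counts are those of the deposited signal table. Alternatives were other scalings, filters, GC-corrected offsets, a replicate block, DESeq2 1.42.0, limma 3.58.1 (also on log2 of the normalized value plus 1), stricter thresholds and leaving out each library.

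Named were all members, all counted BCL2-related genes and, in each other list, from the called genes whose normalized count averaged 100 or more, up to 2 at each end of the log2 fold changes. The 3 tested genes that correlate best with the called member of the largest difference were also named. The members and lists were chosen with earlier results of these data known. Some genes that this rule names are not reported here.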

Additional observations from a re-analysis of the deposited data

Results flagged for a closer look

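Of 42 groups of 4 libraries examined (each tested BCL2 family or BCL2-related gene in each group, among others), 2 had a library far from the other 3 by Dixon's test at the 95% level, and chance at 1 in 20 gives about 2.1. Bcl2l15 had a normalized count of 276 in Sca1+ replicate 3, the lowest of its group, where the other 3 libraries held 341 to 343, and this value lay within the range of the Sca1- libraries. Bnip3l had 962 in Sca1- replicate 1, the highest of its group, where the other 3 held 782 to 810.4. Neither gene is among the 10 members, and no tested member had such a library in either group.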

How the results depend on the processing

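Bcl2, Bcl2l2, Mcl1, Bak1 and Bcl2l11 kept their direction and their call under all 18 alternatives, with log2 fold changes of 0.25 to 0.33, 0.42 to 0.52, 0.18 to 0.26, -0.66 to -0.46 and 0.72 to 0.80. Bid was called in 17 of 18 and was lost with library totals alone, at -0.11. GC-corrected offsets turned Bcl2l1 to -0.053, Bbc3 to -0.084 and Bcl2l12 to -0.052, and called Bax at -0.44. Without the filter on low counts Bbc3 was called at 0.32 (adjusted p of 0.0335). Leaving out 1 library at a time gave Bcl2l1 0.025 to 0.12, Bbc3 0.16 to 0.45, Bax -0.13 to -0.059 and Bcl2l12 -0.050 to 0.19, the lowest Bcl2l12 value without Sca1+ replicate 3, and gave 4 to 5 members higher and 2 to 3 lower. Members lower numbered 1 with library totals alone and 1 at an adjusted p of 0.01. With a log2 fold change of at least 1 required, 0 members were higher and 0 lower. Over all pathway lists, with the other BCL2-related genes included, 4 genes were then higher and 2 lower, in place of 21 and 44. With the longest transcript as length, the shares in Sca1+ and Sca1- were 38.3 and 33.7% for the anti-apoptotic genes, 46.0 and 52.6% for the effectors and 15.6 and 13.7% for the BH3-only genes. The cause of these changes was not tested.

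Same-numbered libraries showed no clear shared deviation, with correlations of deviations of 0.0957, -0.15, -0.0339 and -0.00107. These values cannot tell whether same-numbered libraries came from a common sort or culture. With the replicate block, 4 members were higher and 2 lower and no member's call changed. The pathway lists, with the other BCL2-related genes included, then had 21 higher and 43 lower. At these depths 1 count of Pmaip1 in 8 libraries allows no statement on its difference.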
